A study of Homo sapiens with 20 samples.

Results

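The genes described here are a set of 36 interferon-stimulated genes outside the IFIT and OAS families: the ISG15 system, 3 chemokines, antiviral effectors, GTPases, interferon regulatory factors, PARP proteins and further induced proteins. They were chosen by symbol. Each was read by its brightest probe set among those annotated to that gene alone, and 34 of the 36 had such a probe set, out of 19775 genes measured in the whole series. STAT2 and UBA7 had none and were not analysed here. The values are log2 intensities of Affymetrix 3′ arrays. A group mean under 6 on this scale was called dim, and by these probe sets 8 of the 34 genes (CXCL11, TRIM22, SAMD9, SAMD9L, XAF1, MX2, GBP1 and IFI44L) were dim in all 6 groups. A second probe set of SAMD9 was above that level in the LNCaP siLSD1 arrays.

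The study used 20 arrays of total RNA from prostate cancer cell lines: LNCaP, which is androgen-sensitive, and its castration-resistant derivative C42B. In LNCaP, 3 arrays with siRNA against LSD1 (siLSD1) were compared with 3 with the control siRNA labelled siNTC, after transfection at 50 nM with Dharmafect 3 and 96 h in RPMI with 10% FBS, and RNA of 2 wells was pooled for each replicate. In C42B, 3 siLSD1 arrays were compared with 3 siNTC arrays, after 6 h of transfection and 96 h in RPMI with 10% CSS (charcoal-stripped serum, which is depleted of steroids), with replicates from separate wells. In a separate experiment, C42B cells spent 72 h in CSS medium and then 16 h with 100 nM DHT (dihydrotestosterone, an androgen) or with the same volume of ethanol (vehicle), 4 arrays each. LSD1, encoded by KDM1A, is a histone lysine demethylase. KDM1A was at 7.26, 7.40 and 7.25 with siLSD1, against 9.95, 10.05 and 10.23 with siNTC in LNCaP (−2.78 on the log2 scale), and at 8.03, 7.83 and 7.80 with siLSD1, against 10.29, 10.36 and 10.21 with siNTC in C42B (−2.40). It was at 10.24 to 10.36 with DHT, against 10.10 to 10.16 with vehicle. Only 1 siLSD1 label was used per line, and an effect of that siRNA's sequence and an effect of reduced LSD1 cannot be told apart. The lines also differed in serum and transfection, so line and culture conditions cannot be told apart. Whether replicates were independent cultures is not stated for C42B, so the p-values measure only a spread between arrays that may be technical.

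Type I interferons bind the receptor pair IFNAR1 and IFNAR2, whose kinases JAK1 and TYK2 activate STAT2 among other factors. STAT2 and IRF9 are subunits of ISGF3, which binds the interferon-stimulated response element (ISRE) in promoters, and IRF1, IRF3 and IRF7 bind closely related sequences. The induced proteins act on viral entry, replication and release, attach the ubiquitin-like protein ISG15 to other proteins, attract leukocytes, or restrain the response itself. Interferon-gamma acts through a different element, the gamma-activated site (GAS).

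The ISRE is shown because it is the promoter element that defines the class. Its core was searched as the letters GAAA, any 2 bases and GAAA again, on both strands with overlapping matches counted, in RefSeq promoter windows of 250 bases before to 50 bases after each gene's start (GRCh38.p14). A window was found for 29 of the 36 genes. The core was in 19 of them (65.5%), against 4.38% of the 27305 genes with a window and 3.57% of all 35116 windows. In LNCaP 11 genes of the set passed higher with siLSD1 by a fitted log2 change of at least 0.8, and all but IRF9 hold the core before their start. The sequences of these 10 are given in order of the change. Each has up to 15 bases on either side of its matches. They are written 5′ to 3′ on the gene's strand, from RefSeq, with matches to the core in capitals. The matches are read on the opposite strand in HERC5, RSAD2 and IFI44 and on 1 strand each in IFI27. CXCL10 is at chr4:76023694-76023733 (minus strand), HERC5 at chr4:88456979-88457069 (plus strand) and DDX60 at chr4:168318781-168318855 (minus strand). RSAD2 is at chr2:6877617-6877656 (plus strand), in its second window. IFITM1 is at chr11:313985-314024 (plus strand), IFI27 at chr14:94110613-94110665 (plus strand) and BST2 at chr19:17405730-17405775 (minus strand). IFI44 is at chr1:78649756-78649788 (plus strand), IFI6 at chr1:27672261-27672363 (minus strand) and ISG15 at chr1:1013369-1013414 (plus strand).
CXCL10: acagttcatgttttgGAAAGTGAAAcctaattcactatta
HERC5: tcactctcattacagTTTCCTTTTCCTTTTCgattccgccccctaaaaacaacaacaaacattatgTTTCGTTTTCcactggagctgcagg
RSAD2: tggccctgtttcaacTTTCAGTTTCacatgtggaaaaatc
IFITM1: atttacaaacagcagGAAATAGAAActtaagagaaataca
IFI27: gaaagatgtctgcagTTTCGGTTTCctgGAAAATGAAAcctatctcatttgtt
DDX60: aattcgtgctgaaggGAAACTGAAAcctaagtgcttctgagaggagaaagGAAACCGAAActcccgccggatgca
IFI44: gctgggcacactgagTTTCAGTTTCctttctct
BST2: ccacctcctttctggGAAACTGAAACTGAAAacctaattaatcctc
IFI6: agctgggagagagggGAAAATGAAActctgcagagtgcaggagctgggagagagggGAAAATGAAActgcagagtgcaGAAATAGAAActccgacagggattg
ISG15: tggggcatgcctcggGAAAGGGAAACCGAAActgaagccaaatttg

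In these stretches HERC5 and IFI6 hold 3 matches each, IFI27, DDX60, BST2 and ISG15 hold 2 each, and CXCL10, RSAD2, IFITM1 and IFI44 hold 1 each. A further match that spans the start of IFITM1 is not shown. In ISG15 and BST2, as in part of HERC5, the matches overlap. A match is a description of letters and not a tested binding site.

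With siLSD1 in LNCaP most of the set was higher. Of the 34 genes, 20 passed higher and 2 lower (limma, adjusted p under 0.05 over all genes), and 12 did not pass. Over all 19775 genes 13.4% were higher and 12.5% lower. The median change of the set was 0.37 on the log2 scale, beside 0.01 over all genes. In C42B 9 passed higher and 3 lower, against 8.66% and 9.39% of all genes, with a median change of 0.06 beside −0.02 over all genes. With DHT 5 passed higher and 11 lower, against 13.4% and 19.4% of all genes, with a median change of −0.07 beside 0.01. With median centring of each array the DHT counts over all genes were 4530 higher and 2778 lower, in place of 2643 and 3827, and those of the set were 6 and 9, with a median change of −0.0049. In these bulk samples a change in fewer cells and a smaller change in every cell cannot be told apart.

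The count of 9 in C42B fell to 5 without siLSD1 replicate 2, without siLSD1 replicate 3 or without siNTC replicate 3. Every passing gene of the set in either siRNA comparison had its siLSD1 arrays all above or all below its siNTC arrays, as did 99.8% of all genes that passed in LNCaP and 100% in C42B. With DHT the same held for 5 of 5 higher and 9 of 11 lower genes, against 91.5% and 93.9% of all genes that passed, and MX1 and IRF7 overlapped. Passes of genes dim in both groups were CXCL11 (higher) and GBP1 (lower) in LNCaP, IFI44 (higher) in C42B and EPSTI1 (higher) with DHT.

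**Figure D1:**
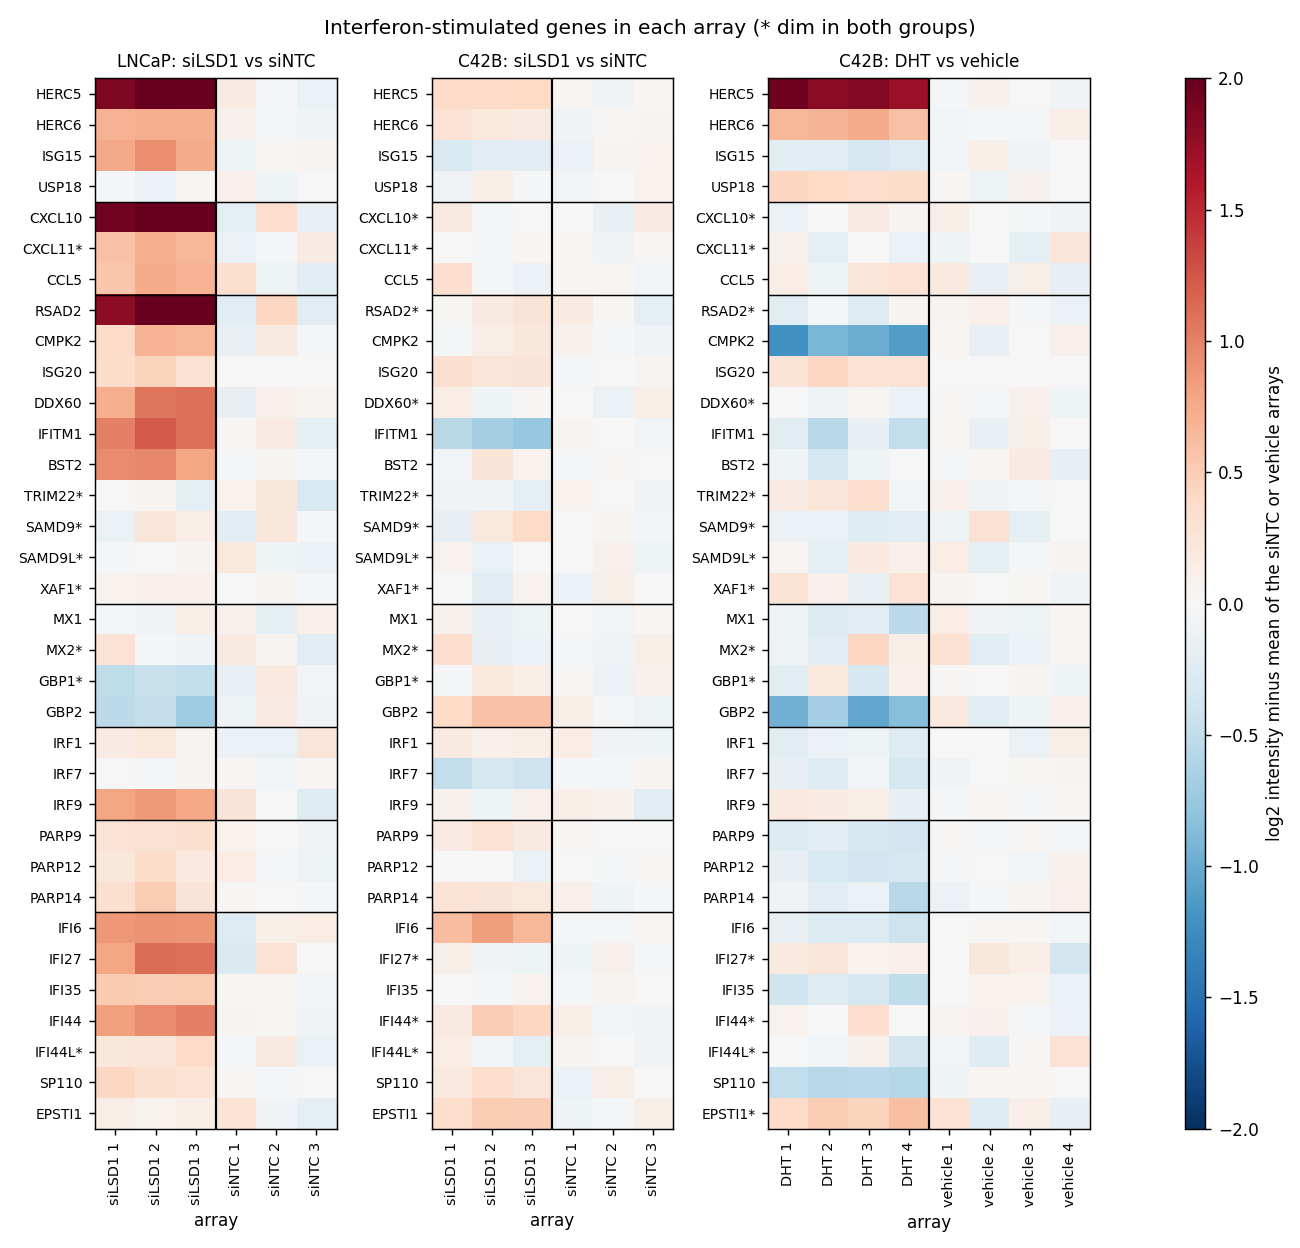
Log2 intensity of each of the 34 genes in each array (rows by role, columns by array) minus the mean of the siNTC arrays (left and middle) or of the vehicle arrays (right), with the colour scale ending at −2 and 2. In the LNCaP panel 20 genes passed higher, in the C42B panel 9, and in the DHT panel 5 higher and 11 lower. An asterisk marks a gene dim in both groups.

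The ISG15 system conjugates ISG15 to target proteins. HERC5, the main human ISG15 ligase, was higher in all 3 comparisons. Its log2 intensity was 8.24, 8.48 and 8.53 in the LNCaP siLSD1 arrays, against 6.55, 6.34 and 6.25 in the siNTC arrays. The 2 groups were far apart, and the rise was 2.04 ± 0.10 on the log2 scale (4.11-fold; ± is limma's SE throughout for changes; adjusted p = 1.1e-05). In C42B HERC5 was at 7.04, 7.05 and 7.06 with siLSD1, against 6.69, 6.58 and 6.70 with siNTC, a rise of 0.39 ± 0.05 without overlap (adjusted p = 0.0028). The siLSD1 effect was larger in LNCaP, by 1.65 ± 0.12 (adjusted p = 1.3e-05, LNCaP minus C42B, fitted on the same 12 siRNA arrays as the comparisons within each line). With DHT it was 8.35, 8.21, 8.24 and 8.12, against 6.38, 6.48, 6.41 and 6.33 with vehicle, a rise of 1.83 ± 0.06 (3.55-fold, adjusted p = 2.1e-08). HERC5 was the only gene of the set to pass at a log2 size of at least 1 both in a siLSD1 comparison and with DHT.

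HERC6, the neighbouring gene, which encodes the main ISG15 ligase in mouse, moved the same way by less. It was at 9.19, 9.23 and 9.22 in LNCaP with siLSD1, against 8.59, 8.49 and 8.44 with siNTC (0.71 ± 0.06, adjusted p = 9.8e-05). With DHT it was at 8.18, 8.20, 8.26 and 8.11, against 7.46, 7.48, 7.48 and 7.64 with vehicle (0.67 ± 0.05, adjusted p = 1.1e-05). Neither pair of groups overlapped. The C42B siLSD1 arrays, at 8.16, 8.08 and 8.04, lay above the siNTC arrays, at 7.80, 7.89 and 7.93, by 0.22 ± 0.06 (adjusted p = 0.037). That call ended when any 1 of the 6 arrays was left out (adjusted p up to 0.11), and the change was −0.031 (adjusted p = 0.78) when HERC6 was read by the mean of its probe sets, of which the second is dim.

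ISG15 itself changed in opposite directions in the lines. In LNCaP it was at 11.88, 12.07 and 11.88 with siLSD1, against 11.05, 11.16 and 11.19 with siNTC. The groups did not overlap, and the rise was 0.81 ± 0.07 (adjusted p = 0.00012). In C42B it was at 10.25, 10.34 and 10.32 with siLSD1, against 10.44, 10.60 and 10.61 with siNTC, a change of −0.24 ± 0.06 (adjusted p = 0.037), which no longer passed without siLSD1 replicate 1, 2 or 3 or without siNTC replicate 2 or 3, left out 1 at a time (adjusted p up to 0.11). The difference between the lines was 1.05 ± 0.10 (adjusted p = 5.4e-05). With DHT, ISG15 was lower as well, at 10.23, 10.23, 10.12 and 10.20, against 10.41, 10.58, 10.40 and 10.47 with vehicle (−0.27 ± 0.05, adjusted p = 0.0037).

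USP18 removes ISG15 from proteins and restrains signalling at IFNAR2. It did not pass with siLSD1 in either line, with a change of −0.04 in LNCaP (95% interval −0.21 to 0.13) and 0.01 in C42B (−0.15 to 0.17). With DHT it was higher, at 8.73, 8.70, 8.64 and 8.66, against 8.33, 8.19, 8.39 and 8.28 with vehicle (0.39 ± 0.05, adjusted p = 0.00027). So 3 of the 4 measured genes of this system were higher with DHT, while ISG15 was lower.

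**Figure D2:**
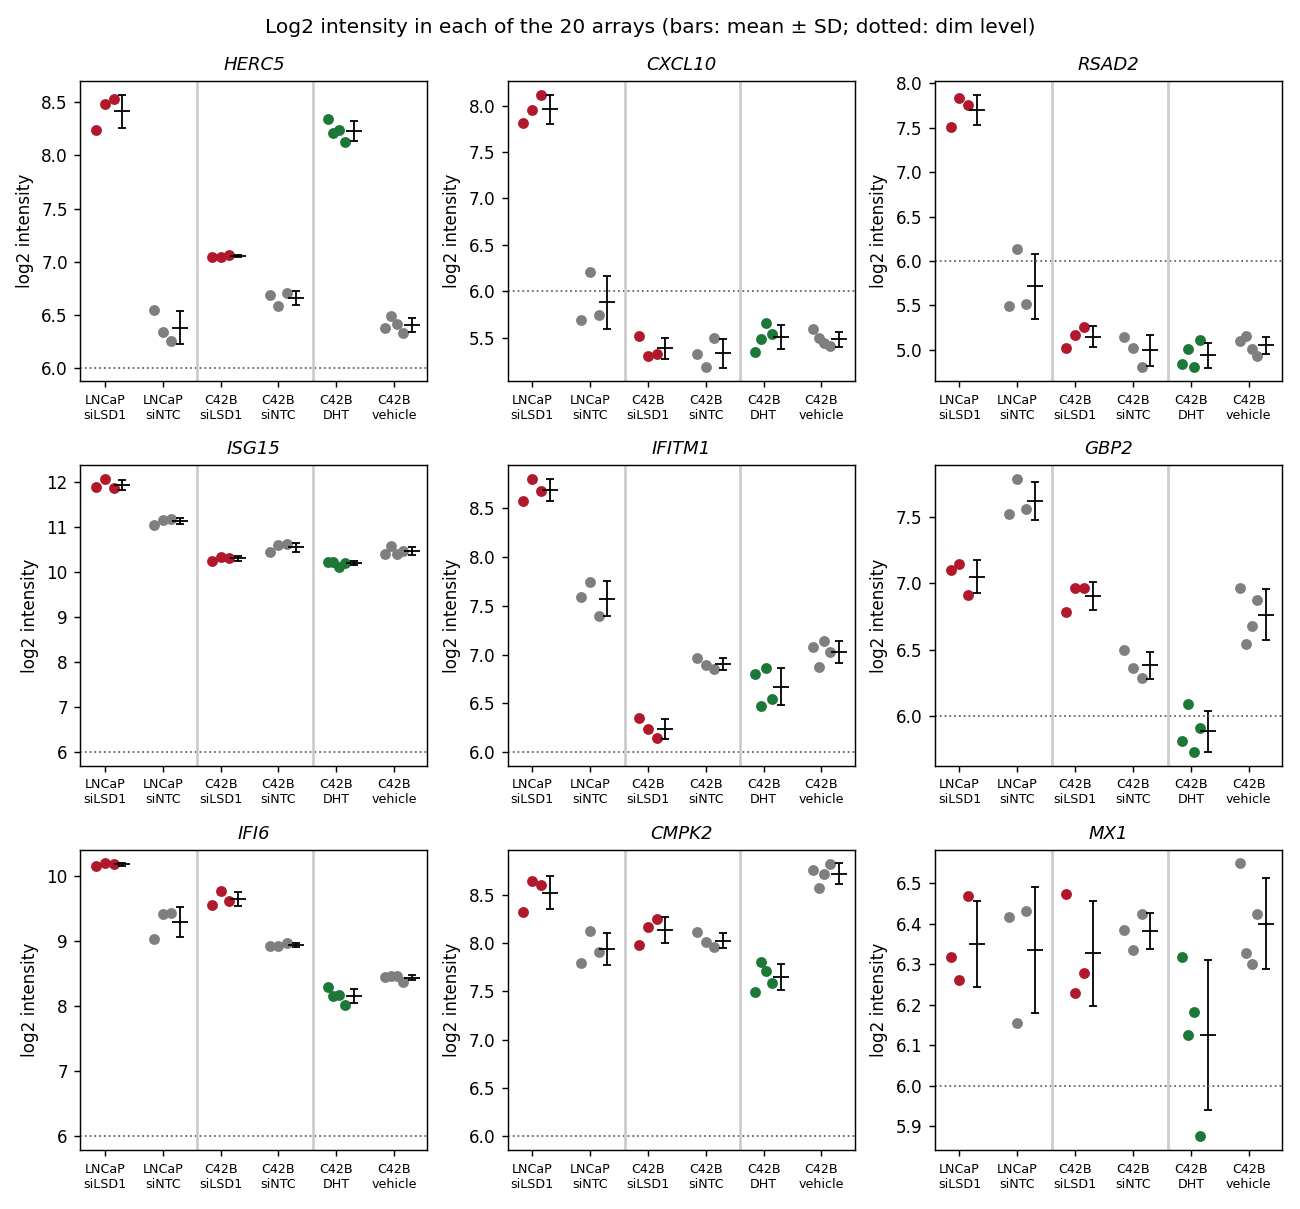
Log2 intensity in every array for 9 genes of the set, with siLSD1 left of siNTC in LNCaP and in C42B and DHT left of vehicle. Points are arrays, bars are the mean ± SD of 3 or 4 arrays, and the dotted line is the dim level of 6. HERC5 is higher in all 3 comparisons, CXCL10 and RSAD2 are above 6 in all LNCaP siLSD1 arrays and dim in every C42B group, and ISG15, IFITM1 and GBP2 differ in direction between the lines. Levels are not compared between experiments.

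The chemokines draw leukocytes to infected tissue: CXCL10 and CXCL11 through CXCR3, and CCL5 through other receptors. All 3 were higher with siLSD1 in LNCaP and none passed in C42B with siLSD1 or DHT. CXCL10 was at 7.81, 7.95 and 8.12 in the LNCaP siLSD1 arrays, against 5.69, 6.21 and 5.74 in the siNTC arrays. Its siNTC mean was dim, so the rise is given as at least 1.96 by group means, counted from 6 (adjusted p = 3e-05 for the fitted change). In C42B it was dim throughout, at 5.18 to 5.66 over the 14 arrays. CCL5 was at 7.11, 7.30 and 7.26 with siLSD1, against 6.88, 6.46 and 6.36 with siNTC in LNCaP (0.66 ± 0.13, adjusted p = 0.0063). Both further probe sets of CCL5 also passed higher in LNCaP, the brighter with a mean of 6.55 with siLSD1 and 5.40 with siNTC. CXCL11, dim in both groups, was at 4.42 to 4.55 with siLSD1, against 3.69 to 4.00 with siNTC (0.66 ± 0.09, adjusted p = 0.00077). The line difference passed for CXCL10 (2.03 ± 0.19, adjusted p = 4.8e-05) and CXCL11 (0.65, adjusted p = 0.0018) but not for CCL5 (0.59 ± 0.19, adjusted p = 0.06).

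Of 10 antiviral effectors, 6 were higher and none lower with siLSD1 in LNCaP. RSAD2 (viperin), a radical SAM enzyme that makes a chain-terminating nucleotide, was at 7.51, 7.84 and 7.76 with siLSD1, against 5.50, 6.13 and 5.51 with siNTC, a rise of at least 1.70 from a dim siNTC group (adjusted p = 9.3e-05). Its second probe set rose as well, with a mean of 7.59 with siLSD1 and 5.25 with siNTC. CMPK2, the adjacent gene, which encodes a mitochondrial nucleotide kinase, was at 8.32, 8.64 and 8.60 with siLSD1, against 7.79, 8.12 and 7.90 with siNTC (0.58 ± 0.11, adjusted p = 0.0053). IFITM1, a membrane protein that blocks viral entry, was at 8.58, 8.80 and 8.68, against 7.59, 7.74 and 7.39 with siNTC (1.11 ± 0.10, adjusted p = 0.00011). None of these pairs of groups overlapped. DDX60, a helicase linked to viral RNA sensing, was at 8.46, 8.80 and 8.83 with siLSD1, against 7.56, 7.84 and 7.78 with siNTC (0.97 ± 0.11, adjusted p = 0.00047). BST2 (tetherin), which holds budding virions at the cell surface, was at 6.85, 6.87 and 6.69, against 5.89, 5.97 and 5.87 with siNTC, a rise of at least 0.80 (adjusted p = 5.3e-05). ISG20, an RNA exonuclease, was at 8.57, 8.65 and 8.52, against 8.21 in each siNTC array (0.37 ± 0.06, adjusted p = 0.0021). The second probe set of ISG20, also bright, did not pass in LNCaP (0.25, adjusted p = 0.081). It passed higher in C42B (0.27) and with DHT (0.23). Calls of single probe sets were adjusted over all probe sets that name 1 gene. By that adjustment the ISG20 probe set used still passed in LNCaP (adjusted p = 0.0035).

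In C42B 1 effector passed higher and 1 lower with siLSD1. IFITM1 was lower with siLSD1, at 6.35, 6.24 and 6.14, against 6.96, 6.90 and 6.85 with siNTC (−0.66 ± 0.07, adjusted p = 0.001). The opposite changes gave a line difference of 1.77 ± 0.13 (adjusted p = 1.3e-05). IFITM1, IFITM2 and IFITM3 are paralogs of near-identical sequence whose signals may not be separated by the probes. IFITM2 and IFITM3 were higher with siLSD1 in LNCaP (0.38 and 0.49) and did not pass in C42B (0.17 and 0.03). ISG20 was the effector that passed higher in C42B with siLSD1, at 9.05, 8.98 and 8.99, against 8.70, 8.72 and 8.79 with siNTC (0.27 ± 0.05, adjusted p = 0.012). RSAD2 and DDX60 were dim in every C42B group, DDX60 with means of 4.19 to 4.25. The line difference passed for RSAD2 (1.83 ± 0.22, adjusted p = 0.00025), DDX60 (0.94, adjusted p = 0.0021) and BST2 (adjusted p = 0.00053). For BST2, whose LNCaP siNTC group was dim, the difference was at least 0.71 when the LNCaP rise was counted from 6.

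With DHT 1 effector passed higher and 2 lower. CMPK2 was at 7.50, 7.80, 7.71 and 7.59 with DHT, against 8.76, 8.57, 8.72 and 8.82 with vehicle. The groups were well apart, and the change was −1.06 ± 0.08 (adjusted p = 5.1e-06, a 2.09-fold fall and the largest of the set). IFITM1 was at 6.80, 6.48, 6.86 and 6.54 with DHT, against 7.07, 6.88, 7.14 and 7.03 with vehicle (−0.36 ± 0.09, adjusted p = 0.016), with DHT replicates 1 and 3 just below the vehicle arrays. ISG20 was higher, at 8.52 to 8.66 with DHT, against 8.25 to 8.27 with vehicle (0.31 ± 0.04, adjusted p = 0.00043). By the probe sets used it thus passed higher in all 3 comparisons, with HERC5 and HERC6. TRIM22, SAMD9, SAMD9L and XAF1 were dim in all groups by the probe sets used, with array values of 3.19 to 5.78, and passed in no comparison. The second probe set of SAMD9 had a mean of 6.51 with siLSD1 and 5.93 with siNTC in LNCaP, and its fitted change of 0.57 did not pass (adjusted p = 0.068).

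GTPases of the interferon response assemble on viral or membrane targets. MX1, one of the best-known interferon-induced genes, was only just above the dim level in all 6 groups, with means of 6.12 to 6.40. It did not pass with siLSD1 in either line. It was at 6.32, 6.26 and 6.47 with siLSD1, against 6.42, 6.16 and 6.43 with siNTC in LNCaP (0.02, 95% interval −0.20 to 0.23), and the groups overlapped. In C42B its siLSD1 change was −0.05 (95% interval −0.22 to 0.12). With DHT MX1 was at 6.32, 6.12, 6.18 and 5.87, against 6.55, 6.33, 6.30 and 6.42 with vehicle (−0.28 ± 0.09, adjusted p = 0.049). The groups overlapped, and the call ended with median centring and when DHT replicate 2, 3 or 4 or any 1 of the 4 vehicle replicates was left out (adjusted p up to 0.12). MX2 was dim in all 6 groups.

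GBP2, a guanylate-binding protein induced strongly by interferon-gamma, changed in opposite directions in the lines. In LNCaP it was at 7.10, 7.14 and 6.91 with siLSD1, against 7.53, 7.79 and 7.56 with siNTC (−0.57 ± 0.09, adjusted p = 0.0023). In C42B it was at 6.79, 6.97 and 6.97 with siLSD1, against 6.49, 6.36 and 6.29 with siNTC (0.53 ± 0.08, adjusted p = 0.004). The groups overlapped in neither line, and the line difference was −1.10 ± 0.13 (adjusted p = 0.00019). With DHT, GBP2 was at 5.81, 6.09, 5.73 and 5.91, against 6.97, 6.54, 6.68 and 6.87 with vehicle, a fall to a dim level by at least 0.77 (adjusted p = 0.00016). GBP1, its neighbour, was dim in both LNCaP groups, at 5.22 to 5.29 with siLSD1, against 5.58 to 5.93 with siNTC (−0.48 ± 0.09, adjusted p = 0.0053). None of its 3 other probe sets passed, and with the mean of all 4 the call ended (adjusted p = 0.26).

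Among the transcription factors, IRF9, the DNA-binding subunit of ISGF3, rose with siLSD1 in LNCaP. It was at 8.91, 8.98 and 8.89, against 8.39, 8.12 and 7.86 with siNTC (0.81 ± 0.12, adjusted p = 0.0015), and its change in C42B was 0.03 (adjusted p = 0.87). The line difference was 0.77 (adjusted p = 0.011). IRF7, which amplifies type I interferon production, did not pass in LNCaP (0.01, 95% interval −0.12 to 0.14). In C42B it was lower with siLSD1, at 8.50, 8.65 and 8.57, against 8.95, 8.97 and 9.04 with siNTC (−0.42 ± 0.06, adjusted p = 0.0034). These 2 effects differed by 0.42 (adjusted p = 0.0041). With DHT it was at 8.43, 8.34, 8.54 and 8.23, against 8.52, 8.58, 8.61 and 8.64 with vehicle (−0.21 ± 0.07, adjusted p = 0.038). Those groups overlapped, and the call ended with quantile normalization, with median centring and when DHT replicate 1, 2 or 4 or vehicle replicate 2, 3 or 4 was left out (adjusted p up to 0.13). IRF1 did not pass in any comparison, with changes of 0.14, 0.14 and −0.17 in LNCaP, C42B and DHT.

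The PARP proteins of the set modify other proteins with ADP-ribose or, for PARP9, work with a ubiquitin ligase partner. PARP9 was higher with siLSD1 in LNCaP, at 9.73, 9.76 and 9.77, against 9.52, 9.44 and 9.38 with siNTC (0.31 ± 0.06, adjusted p = 0.0062). It was also higher in C42B, at 9.21, 9.33 and 9.22, against 9.06, 9.04 and 9.03 with siNTC (0.21 ± 0.05, adjusted p = 0.032). With DHT it was lower, at 8.85, 8.90, 8.81 and 8.74, against 9.15, 9.10, 9.14 and 9.09 with vehicle (−0.30 ± 0.05, adjusted p = 0.00078). By the probe set used the changes were small and without overlap in each comparison. The second probe set of PARP9, also bright, passed in none of them (0.23 in LNCaP, 0.11 in C42B and −0.08 with DHT). Under the same adjustment over probe sets, the probe set used passed in LNCaP and with DHT but not in C42B (adjusted p = 0.053). PARP14 was higher in LNCaP, at 6.28, 6.47 and 6.21, against 5.98, 5.97 and 5.92 with siNTC, by at least 0.32 (adjusted p = 0.0084). With its probe sets averaged, of which the second is dim, the change was 0.17 and no longer passed (adjusted p = 0.050). It was also higher in C42B, at 7.93, 7.90 and 7.86, against 7.75, 7.57 and 7.63 with siNTC (0.25 ± 0.06, adjusted p = 0.029). PARP12 was lower with DHT, at 9.00, 8.86, 8.78 and 8.82, against 9.15, 9.16, 9.11 and 9.26 with vehicle (−0.30 ± 0.06, adjusted p = 0.0026). In C42B the call of PARP9 ended when any array but siLSD1 replicate 1 was left out, and that of PARP14 when any array but siNTC replicate 1 was, as both did when probe sets were averaged (adjusted p up to 0.11 and 0.27).

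Of the 7 remaining induced proteins, 5 were higher with siLSD1 in LNCaP. IFI6, a small membrane protein with antiviral and anti-apoptotic activity, had the largest rise of the set in C42B and was also higher in LNCaP. It was at 10.16, 10.20 and 10.18 in LNCaP with siLSD1, against 9.03, 9.41 and 9.44 with siNTC (0.89 ± 0.11, adjusted p = 0.0005). In C42B it was at 9.56, 9.77 and 9.61 with siLSD1, against 8.93, 8.93 and 8.98 with siNTC (0.71 ± 0.07, adjusted p = 0.00075). The line difference of 0.18 did not pass (adjusted p = 0.45, 95% interval −0.11 to 0.47). With DHT IFI6 was lower, at 8.29, 8.16, 8.17 and 8.02, against 8.45, 8.46, 8.46 and 8.38 with vehicle (−0.28 ± 0.06, adjusted p = 0.0053).

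IFI27, a mitochondrial protein, and IFI44, whose role is less well known, were bright in LNCaP and dim in every C42B group. In LNCaP IFI27 was at 7.63, 7.97 and 7.95 with siLSD1, against 6.55, 7.13 and 6.85 with siNTC (1.00 ± 0.15, adjusted p = 0.0015). IFI44 was at 8.61, 8.74 and 8.80, against 7.84, 7.81 and 7.71 with siNTC (0.93 ± 0.07, adjusted p = 5.3e-05). Both rises were larger than the effect in C42B, by 1.02 (adjusted p = 0.004) and 0.56 (adjusted p = 0.011). The C42B rise of IFI44, dim in both groups (0.37 ± 0.09, adjusted p = 0.034), did not pass without siLSD1 replicate 2 or 3 or siNTC replicate 2 or 3. IFI35 was at 8.12, 8.09 and 8.10 in LNCaP with siLSD1, against 7.63, 7.64 and 7.54 with siNTC (0.51 ± 0.06, adjusted p = 0.00035), and it did not pass in C42B (0.02). With DHT IFI35 was lower, at 7.78, 7.91, 7.84 and 7.67, against 8.18, 8.24, 8.24 and 8.04 with vehicle (−0.38 ± 0.07, adjusted p = 0.0017).

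SP110, a nuclear body protein, was at 8.89, 8.80 and 8.75 in LNCaP with siLSD1, against 8.51, 8.46 and 8.48 with siNTC (0.33 ± 0.06, adjusted p = 0.0041). With DHT it was at 8.36, 8.30, 8.33 and 8.29, against 8.78, 8.90, 8.90 and 8.85 with vehicle (−0.54 ± 0.04, adjusted p = 1e-05). The direction was opposite in these comparisons, with no overlap in either. In C42B with siLSD1 SP110 missed the threshold (0.26, adjusted p = 0.06). Of its other probe sets, all bright there, 2 passed higher (0.40 and 0.26) and 2 did not pass (0.04 and 0.04). In LNCaP the other probe sets of SP110 changed by 0.36, which passed, and by 0.12, 0.08 and 0.07, which did not. The last 2 of these were dim. With DHT they changed by −0.57 and −0.35, which passed, and by −0.09 and 0.06, which did not. EPSTI1, named for epithelial and stromal interaction, was higher in C42B with siLSD1, at 6.02, 6.17 and 6.16, against 5.59, 5.65 and 5.78 with siNTC, by at least 0.12 (adjusted p = 0.0057). It did not pass in LNCaP (0.11), and with DHT it was higher but dim in both groups (0.48 ± 0.11, adjusted p = 0.0097). IFI44L was dim in all groups and passed in no comparison.

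**Figure D3:**
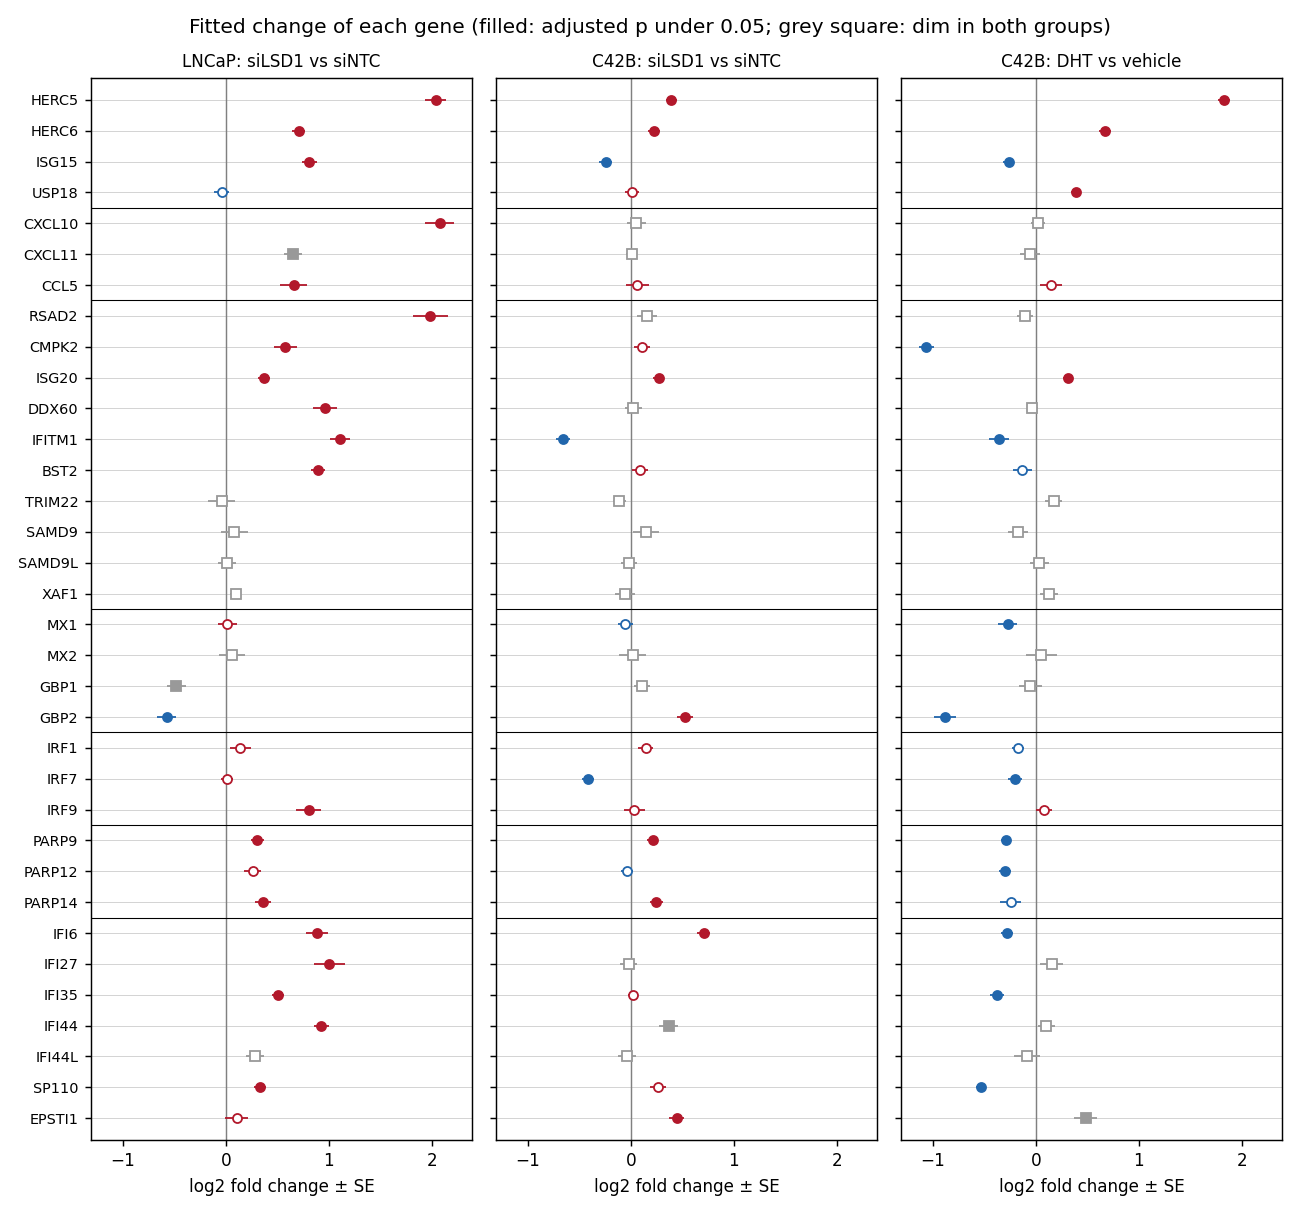
Fitted log2 fold change ± SE (limma) of each of the 34 genes, for siLSD1 against siNTC in LNCaP and C42B (3 arrays each) and for DHT against vehicle in C42B (4 arrays each), on 1 shared scale. Filled points passed at an adjusted p under 0.05, red is higher and blue lower, and grey squares are dim in both groups. CXCL10, RSAD2, BST2 and PARP14 in LNCaP, EPSTI1 in the C42B siLSD1 panel and GBP2 with DHT are plotted at the fitted change although 1 of their groups is dim. The LNCaP panel reaches 2.08 at CXCL10, the C42B panel 0.71 at IFI6, and the DHT panel 1.83 at HERC5 and −1.06 at CMPK2.

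Set side by side, 7 genes passed higher with siLSD1 in both lines, 7 of the 20 in LNCaP and 7 of the 9 in C42B (HERC5, HERC6, ISG20, PARP9, PARP14, IFI6 and IFI44, the last dim in C42B). Over all genes 39.7% of those higher in LNCaP were also higher in C42B, and 61.1% of those higher in C42B were also higher in LNCaP. Of the 7, the C42B calls of HERC6, PARP9, PARP14 and IFI44 each ended under at least 6 of the alternative settings. HERC6 turned to −0.031 in C42B with probe sets averaged. A further 11 passed higher in LNCaP and did not pass in C42B. ISG15 and IFITM1 were higher in LNCaP and lower in C42B, and GBP2 was lower in LNCaP and higher in C42B. The C42B call of ISG15 ended under 5 of the alternative settings. The line difference itself passed for 16 of the 34 genes, 14 with a more positive effect in LNCaP and 2 with a more positive effect in C42B. Over all genes these shares were 6.07% and 5.56%, and the median difference was 0.31 for the set and 0.02 over all genes. For 7 of the 16 (CXCL10, CXCL11, RSAD2, DDX60, GBP1, IFI27 and IFI44) both C42B groups were dim, so these differences depend on values under the dim level. The other 9 were above the dim level in both C42B groups, and BST2 among them was dim in the LNCaP siNTC arrays: HERC5, HERC6, ISG15, IFITM1, BST2, GBP2, IRF7, IRF9 and IFI35.

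**Figure D4:**
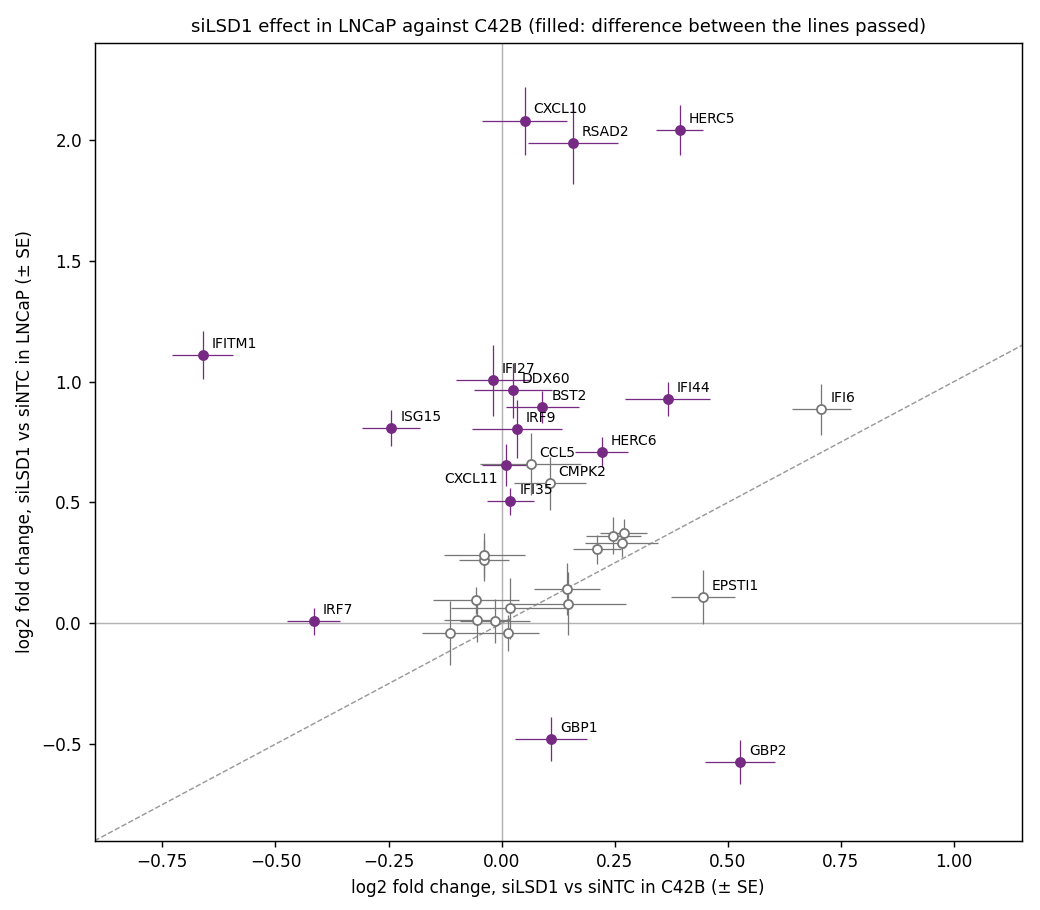
Fitted siLSD1 effect (log2 fold change ± SE, limma) in LNCaP (vertical axis) against C42B (horizontal axis) for the 34 genes. Filled points are the 16 genes whose line difference passed, and the dashed line marks equal effects. HERC5, CXCL10 and RSAD2 lie near 2 in LNCaP and at 0.39, 0.05 and 0.16 in C42B, while IFI6 lies close to the dashed line.

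With DHT, the 11 genes that passed lower were ISG15, CMPK2, IFITM1, MX1, GBP2, IRF7, PARP9, PARP12, IFI6, IFI35 and SP110, and the 5 that passed higher were HERC5, HERC6, USP18, ISG20 and EPSTI1. Of the 20 genes higher with siLSD1 in LNCaP, 3 were higher (3 of the 5) and 7 lower (7 of the 11) with DHT. Of the 9 higher with siLSD1 in C42B, 4 were higher and 3 lower with DHT (4 of the 5 and 3 of the 11). Over all genes, 21.6% of those higher in LNCaP with siLSD1 were higher and 35.7% lower with DHT, and of those higher in C42B 30.1% and 34.7%. In the other direction these were 21.6% and 24.6% of the genes higher and lower with DHT for LNCaP, and 19.5% and 15.5% for C42B. All 3 genes lower with siLSD1 in C42B (ISG15, IFITM1 and IRF7) were also lower with DHT, 3 of the 11, against 27.4% of all genes lower in C42B and 13.3% of all genes lower with DHT. The androgen response element (AGAACA, any 3 bases and TGTTCT) was in none of the 29 promoter windows and in 1 window of all 35116, which says only that these letters are not in those windows.

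Genes with and without the ISRE core were both among those that passed. Of the 19 with it, 13 passed higher and 1 passed lower in LNCaP with siLSD1, 7 and 2 in C42B, and 3 and 6 with DHT. Of the 9 measured genes without it, 6 were higher and none lower in LNCaP, 1 and none in C42B, and 1 and 3 with DHT. These counts were not tested against each other. The GAS core TTCNNNGAA was in 12 of the 29 windows (41.4%), against 9.38% of all genes.

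Several of the genes are neighbours. HERC6 and HERC5, CXCL10 and CXCL11, CMPK2 and RSAD2, IFI44L and IFI44, GBP1 and GBP2, MX2 and MX1, and SAMD9 and SAMD9L each have no other coding gene between them in RefSeq. CMPK2 was lower with DHT, while RSAD2 was dim in both groups of that experiment, so that its change cannot be read. Among genes around this pair, SOX11 (−0.49), RNF144A (−0.66) and ID2 (−0.29) were also lower with DHT, as were 19.4% of all genes. PPM1K, a mitochondrial phosphatase gene on the other side of HERC6, was also higher in all 3 comparisons, by 1.10 with siLSD1 in LNCaP, 0.44 with siLSD1 in C42B and 0.83 with DHT. ABCG2, further out on that side, was lower with DHT (−0.82). It did not pass with siLSD1 in LNCaP (−0.16, dim in both groups) or in C42B (−0.37). PPM1K, ABCG2, SOX11, RNF144A and ID2 were chosen after their values were seen.

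Genes that act before the set in the interferon response were listed by symbol. Of 17 measured ligands, receptors and JAK-STAT genes, 3 passed higher and 2 passed lower in LNCaP with siLSD1, 2 and none in C42B, and 2 and 1 with DHT. For this list and those that follow, the shares of all genes higher and lower were 13.4% and 12.5% in LNCaP. They were 8.66% and 9.39% in C42B, and 13.4% and 19.4% with DHT. The median changes of these 17 genes were −0.01, 0.01 and 0.06, beside 0.01, −0.02 and 0.01 over all genes. IFNB1, IFNE, IFNK, IFNG and IFNL1 were dim in all groups, none passed, and IFNB1 was at 5.04 to 5.06 with siLSD1, against 4.87 to 4.96 with siNTC in LNCaP (0.14, adjusted p = 0.11). STAT3, which carries signals of IL-6 family cytokines, was higher in all 3 comparisons (0.33, 0.50 and 0.20). The gamma-interferon receptor chains IFNGR1 and IFNGR2 were higher with siLSD1 in LNCaP (0.33 and 0.37). With DHT IFNGR1 was higher (0.33) and IFNGR2 lower (−0.33). IFNAR1 and JAK1 were lower with siLSD1 in LNCaP (−0.21 and −0.28). IL10RB was higher with siLSD1 in C42B (0.36).

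Of 14 genes of nucleic acid sensing and the IRF3 and NF-kB switches, 3 were higher and 2 lower in LNCaP, 1 and 3 in C42B, and 4 and 4 with DHT. Their median changes were 0.08, 0.02 and 0.04, beside 0.01, −0.02 and 0.01 over all genes. RIGI, the cytoplasmic RNA sensor, was at 8.23, 8.16 and 8.20 with siLSD1, against 7.43, 7.62 and 7.77 with siNTC in LNCaP (0.59 ± 0.09, adjusted p = 0.0014). It was higher in C42B (0.28 ± 0.07, adjusted p = 0.033) and lower with DHT (−0.45 ± 0.11, adjusted p = 0.01). IFIH1, a second RNA sensor, was lower with DHT (−0.68), and TLR3, a sensor of double-stranded RNA, was higher in LNCaP by at least 0.10. IRF3 was lower with siLSD1 in LNCaP (−0.31) and C42B (−0.22), and NFKB1 was lower in all 3 comparisons (−0.56, −0.34 and −0.53). The NF-kB inhibitors moved most with DHT. NFKBIA was at 12.04, 12.04, 12.04 and 11.97 with DHT, against 10.52, 10.53, 10.49 and 10.42 with vehicle (1.54 ± 0.04, adjusted p = 1e-08), and TNFAIP3 was higher by 0.83. NFKBIA was lower with siLSD1 in C42B (−0.26), and TNFAIP3 was higher in LNCaP (0.33). MAVS (0.16) and TBK1 (0.28), which pass the RNA signal to IRF3, were higher with DHT.

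The IFIT and OAS families are interferon-stimulated genes that bind foreign or double-stranded RNA. Of their 8 genes, 5 passed higher and 1 passed lower in LNCaP with siLSD1, 2 and 1 in C42B, and none and 4 with DHT. IFIT1, which binds foreign RNA ends, was at 10.82, 11.00 and 10.83 with siLSD1, against 8.15, 8.44 and 8.41 with siNTC in LNCaP. In C42B it was at 6.67, 6.88 and 6.84 with siLSD1, against 5.89, 5.76 and 6.00 with siNTC, a rise of at least 0.80. With DHT IFIT5 was lower by 0.80 and IFIT1 fell to a dim level. Among 31 measured further interferon-stimulated genes, 5 were higher and 2 lower in LNCaP, 4 and none in C42B, and 3 and 10 with DHT. Over all genes 13.4% were higher and 12.5% lower in LNCaP, 8.66% and 9.39% in C42B, and 13.4% and 19.4% with DHT. The median changes of these 31 genes were 0.08, 0.03 and −0.12, beside 0.01, −0.02 and 0.01 over all genes. SLFN5, which restricts viral transcription, was higher with siLSD1 in C42B (0.31 ± 0.05, adjusted p = 0.0065) and lower with DHT (−1.72 ± 0.07, adjusted p = 1.7e-07). TRIM25, the ligase that activates RIGI, was lower with DHT (−0.63).

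**Figure D5:**
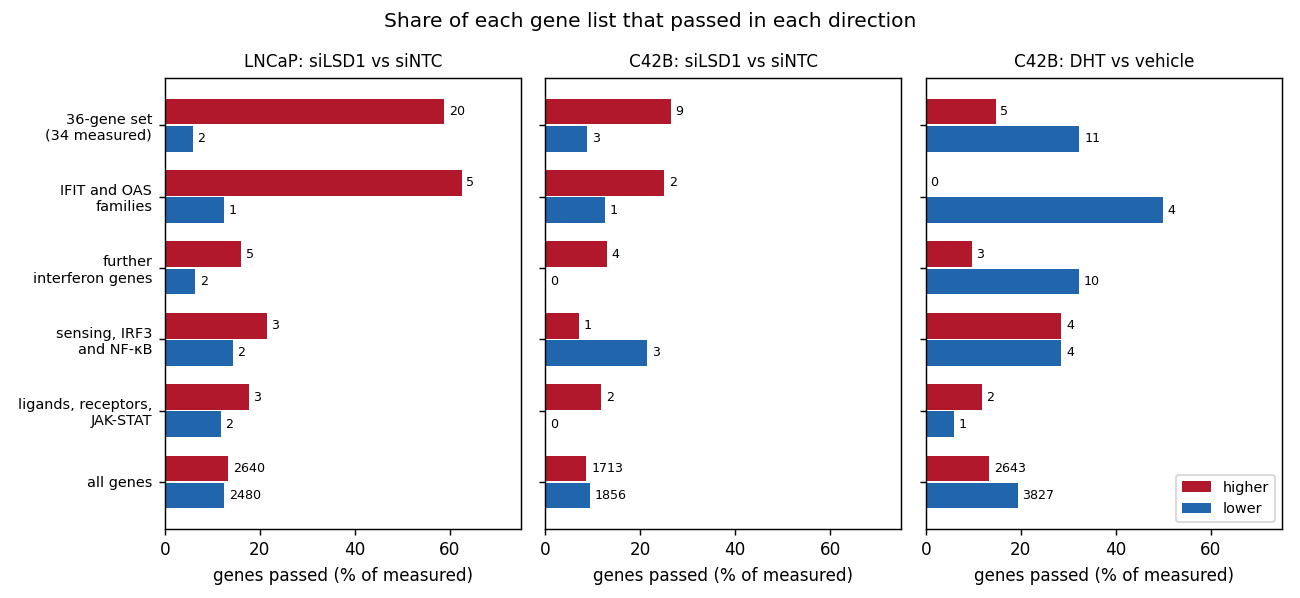
Share of measured genes that passed higher (red) or lower (blue) at an adjusted p under 0.05, in percent, for the 34 measured genes of the set, 4 related lists and all 19775 genes, with the number of genes beside each bar. In LNCaP the set had 20 higher and 2 lower, and the IFIT and OAS families 5 and 1. The panels are siLSD1 against siNTC in LNCaP and C42B and DHT against vehicle in C42B.

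Array medians of intensity were 63.3 to 65.1 in the LNCaP experiment, 78.4 to 81.2 in the C42B siRNA experiment and 84.1 to 86.1 in the DHT experiment, so levels were not compared between experiments. RNA quality was read from the actin control probe sets, as the log2 signal at the 3′ end less that at the 5′ end. In the LNCaP arrays this difference was 0.93 to 1.09 for siLSD1 and 0.82 to 0.98 for siNTC. The C42B arrays had 1.17 to 1.31 for siLSD1 and 1.13 to 1.19 for siNTC, and 0.91 to 1.16 with DHT and 0.90 to 1.12 with vehicle. All 7 measured luminal prostate markers were bright in every group, and 3 passed higher with siLSD1 in LNCaP, 3 in C42B, and 5 higher and 2 lower with DHT. Their summed intensity was 30292 to 31889 in LNCaP siLSD1 arrays and 23793 to 25263 in LNCaP siNTC arrays. It was 43357 to 43530 in C42B siLSD1 arrays and 34175 to 34939 in C42B siNTC arrays, and 47541 to 49154 with DHT and 14856 to 16641 with vehicle. Of 11 measured stromal, endothelial and leukocyte markers none passed higher in any comparison. COL3A1, a fibrillar collagen gene, was lower in LNCaP with siLSD1 (−0.77, adjusted p = 0.0028) and with DHT, where its mean was 5.60, against 7.20 with vehicle (adjusted p = 2.4e-06). LUM, CDH5, PTPRC and CD14 were dim in all groups, and COL1A1, PECAM1 and VWF were bright in all groups. Summed over these markers, intensity in LNCaP was 814 to 837 in siLSD1 arrays and 833 to 924 in siNTC arrays, 901 to 1044 in siLSD1 arrays and 954 to 1016 in siNTC arrays of C42B, and 1077 to 1178 with DHT and 1156 to 1327 with vehicle. The part of these differences in RNA quality and marker signal in the results was not tested.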

How the data were processed

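Total RNA was measured on 20 Affymetrix 3′ arrays, each with 54675 probe sets. The deposited values are linear intensities, 1 for each probe set. Per the submitters' processing notes they come from the affy package's RMA. Its version is not given in the sources used here. RMA shrinks low signals together, which understates changes of dim genes. Log2 was taken of each deposited intensity. Of the probe sets 41091 name 1 gene in the annotation used here, and each of 19775 genes was read by its brightest such probe set, by the mean of all 20 arrays. Sources name 2 labelling kits without the samples they were used for, so kit was not a term.

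Each comparison was fitted on its own arrays with lmFit and eBayes of limma 3.58.1 (R 4.3.3), two-sided, without covariates, with Benjamini-Hochberg adjustment over all genes. The line difference was a contrast over the 12 siRNA arrays. Single probe sets were fitted apart, with the adjustment over the 41091 probe sets that name 1 gene. No dim gene was removed. Where 1 of the 2 groups was dim, the size of the change is a bound, counted from 6. Such a bound uses the mean of the other group and leaves out its sampling error. The adjusted p beside it is that of the fitted change. Figures were drawn with matplotlib 3.10.9, and tables made with pandas 2.3.3 and numpy 2.4.6 under Python 3.11.15. The fit was tested on simulated data. RefSeq promoter windows (GRCh38.p14) were scanned for the motifs on both strands. The number of arrays limits the precision.

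The genes, lists and tests were chosen with earlier results of these data known. Every gene of the set was named. From related lists only part of the genes that passed with a bright group, and part of the receptor signalling genes, were named. PPM1K, ABCG2, SOX11, RNF144A and ID2 were named after their values were seen. Alternatives were leaving out each array, removal of dim genes, averaging the probe sets of each gene, eBayes with its trend and robust options, a replicate block, median centring and quantile normalization.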

Additional observations from a re-analysis of the deposited data

Results flagged for a closer look

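In the DHT experiment the 34 genes had 38 groups of 4 arrays with a mean of at least 6. In 4 of these, 1 array stood apart from the other 3 by Dixon's test, where chance gives about 5%. HERC6 was at 7.64 in vehicle replicate 4 (the others at 7.46 to 7.48). ISG20 was at 8.66 in DHT replicate 2 (the others at 8.52 to 8.54) and at 8.27 in vehicle replicate 2 (the others at 8.25). IFI6 was at 8.38 in vehicle replicate 4 (the others at 8.45 to 8.46). In each case the DHT and vehicle arrays still did not overlap.

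The siLSD1 effect differed between the lines for 16 genes by limma's test of the difference (LNCaP minus C42B, log2 scale, adjusted p of 0.011 or less). It was more positive in LNCaP for HERC5 (1.65), HERC6 (0.49), ISG15 (1.05), CXCL10 (2.03), CXCL11 (0.65), RSAD2 (1.83), DDX60 (0.94), IFITM1 (1.77), BST2 (0.81 as fitted, and at least 0.71 counted from 6 in its dim LNCaP siNTC group), IRF7 (0.42), IRF9 (0.77), IFI27 (1.02), IFI35 (0.49) and IFI44 (0.56). It was more positive in C42B for GBP1 (−0.59) and GBP2 (−1.10). Serum and transfection differed with the line, and their part in these differences was not tested.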

How the results depend on the processing

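The direction and the call of most genes held under the alternatives, but this counts genes that had not passed and so had no call to lose. Of the 12 calls in C42B with siLSD1, those of PARP9, PARP14, IFI44, HERC6 and ISG15 each ended under several alternatives. In LNCaP the counts of the set were 20 to 22 higher and 2 to 2 lower, with a median of 0.34 to 0.41, when each array was left out in turn. In C42B they were 5 to 8 and 2 to 3 (0.039 to 0.089), with DHT 5 to 7 and 9 to 10 (−0.09 to −0.06), and for the line difference 14 to 16 and 2 to 2 (0.25 to 0.35). With the mean of all probe sets 1 gene was lower in LNCaP and 1 in the line difference, and the medians were 0.32 in LNCaP and 0.022 in C42B. HERC6 in C42B turned to −0.031. With dim genes removed the lower counts were again 1 and 1, because GBP1 was not tested, and the medians were 0.62, 0.11, −0.25 and 0.48 in LNCaP, C42B, DHT and the line difference. The DHT median was −0.11 with quantile normalization and −0.0049 with median centring. Calls that ended were GBP1 in LNCaP and the line difference, PARP14 in LNCaP (adjusted p = 0.050, mean of probe sets), PARP9, PARP14, IFI44, HERC6 and ISG15 in C42B, and IRF7 and MX1 with DHT, and the cause was not tested. Calls gained were among PARP12, IFI44L, EPSTI1, IRF1, SP110, SAMD9, TRIM22, XAF1, IRF9, CCL5 and CMPK2.

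Same-numbered arrays correlated at −0.096 to 0.199 around their group means, and arrays of different numbers at −0.241 to 0.192. With 3 or 4 arrays in a group, these values cannot show whether replicate numbers pair the arrays. With the replicate block the set had 20 higher and 2 lower in LNCaP, 7 and 3 in C42B, 5 and 10 with DHT, and 15 and 2 in the line difference. Calls of genes near background are limited by their low signal.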
